A study of Mus musculus with 6 samples.

Results

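The genes described here are 45 genes of the peroxisome, measured in mouse liver. They comprise 13 peroxins (Pex genes), which build the organelle, 15 enzymes of peroxisomal fatty acid oxidation and 17 other peroxisomal proteins. The members were taken from a fixed list of symbols, which was chosen with earlier results of these data known. All 45 were found among the 22180 genes whose probe sets carry exactly 1 gene symbol in the array annotation. Of them, 44 had a single such probe set, and Phyh had 2, of which the brighter was used.

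All livers were from males of the C57BL/6N strain, 2 months old. In the knockout group, which has 3 samples, the mice lacked cGK1, the cGMP-dependent protein kinase that Prkg1 encodes, except for a smooth muscle rescue. The other 3 samples, labelled wild type, came from control mice. Neither the promoter behind the rescue nor the deleted part of the gene is stated in the labels, which also do not say whether replicates were separate animals. P-values therefore cover the spread among these arrays only, part of which may be technical. Each sample was hybridised to 1 whole-transcript array, and values are log2 expression after robust multi-array averaging (RMA), so that a difference of 1 is a 2-fold ratio. Because each probe set has its own brightness, levels are compared between arrays and not between genes.

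Peroxisomes are single-membrane organelles that shorten very long-chain and branched fatty acids, make ether lipids, shorten the side chain of bile acid precursors, and break down the hydrogen peroxide that their oxidases produce. They have no DNA, so every protein is imported from the cytosol by peroxins, either through a targeting signal at the end of the enzyme or by insertion into the membrane. In rodent liver, the nuclear receptor PPARA, paired with RXRA, raises the transcription of many genes of peroxisomal beta-oxidation and of Pex11a when fatty acids or fibrate drugs activate it. The pair is known to bind repeats of the hexamer AGGTCA separated by a single base.

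To place the members whose expression differed with the smallest p-values, their promoter sequences are given first. The sequences run from 250 bases before to 50 bases after the annotated transcript start, are taken from RefSeq on the mouse build GRCm38.p6 and are written 5′ to 3′ on the strand of the gene. Capitals mark the hexamer AGGTCA and the CCAAT box, each on either strand (TGACCT and ATTGG on the opposite strand). Pex11a lies on the minus strand, with its promoter at chr7:79743082-79743381. The thiolase gene Acaa1b is on the minus strand, at chr9:119157044-119157343, and its paralogue Acaa1a, shown for comparison because its expression differed little, is on the plus strand at chr9:119341044-119341343. Ehhadh is on the minus strand at chr16:21787785-21788084 and Scp2 on the minus strand at chr4:108118498-108118797.
Pex11a: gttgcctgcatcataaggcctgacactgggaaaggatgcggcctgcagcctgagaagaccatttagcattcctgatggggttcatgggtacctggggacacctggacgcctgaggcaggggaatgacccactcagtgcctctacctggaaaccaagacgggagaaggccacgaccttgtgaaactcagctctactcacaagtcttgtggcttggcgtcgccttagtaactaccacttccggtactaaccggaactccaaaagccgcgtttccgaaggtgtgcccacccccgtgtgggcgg
Acaa1b: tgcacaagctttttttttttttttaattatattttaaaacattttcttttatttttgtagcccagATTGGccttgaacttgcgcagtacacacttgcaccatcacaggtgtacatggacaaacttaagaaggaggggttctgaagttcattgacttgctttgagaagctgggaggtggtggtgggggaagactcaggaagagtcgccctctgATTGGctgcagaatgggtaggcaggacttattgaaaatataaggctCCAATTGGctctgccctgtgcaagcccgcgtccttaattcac
Acaa1a: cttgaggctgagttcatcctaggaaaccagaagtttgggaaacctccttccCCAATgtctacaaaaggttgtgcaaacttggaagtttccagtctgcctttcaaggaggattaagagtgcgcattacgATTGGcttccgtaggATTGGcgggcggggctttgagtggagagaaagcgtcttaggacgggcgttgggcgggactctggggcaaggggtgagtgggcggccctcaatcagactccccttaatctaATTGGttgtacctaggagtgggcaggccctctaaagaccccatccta
Ehhadh: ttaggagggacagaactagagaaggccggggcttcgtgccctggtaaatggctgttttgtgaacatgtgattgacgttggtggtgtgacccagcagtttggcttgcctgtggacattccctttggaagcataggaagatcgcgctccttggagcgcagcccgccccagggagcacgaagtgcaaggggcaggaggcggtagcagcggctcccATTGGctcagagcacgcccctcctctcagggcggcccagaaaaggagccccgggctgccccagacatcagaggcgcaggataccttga
Scp2: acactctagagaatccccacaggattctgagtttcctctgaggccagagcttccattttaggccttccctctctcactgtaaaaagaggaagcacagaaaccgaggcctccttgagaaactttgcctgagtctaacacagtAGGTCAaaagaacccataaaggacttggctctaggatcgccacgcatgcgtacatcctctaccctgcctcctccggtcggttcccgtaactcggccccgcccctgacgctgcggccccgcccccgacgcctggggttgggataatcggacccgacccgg

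The promoter of Acaa1b held 4 matches to the CCAAT box, beginning at positions -185, -38, 8 and 11 from the start, the last 2 of which overlap. That of Acaa1a also held 4, at -199, -122, -107 and 3. Ehhadh had 1, at -38, and Scp2 had 1 AGGTCA, at -109, while Pex11a had neither motif in this window. RefSeq entries were found for 38 of the 45 members, with 47 promoters in all. The direct repeat AGGTCANAGGTCA (TGACCTNTGACCT on the opposite strand) was in 0 of these 47 and in 0.0396% of all 32851 promoters of the table. The hexamer alone was in 5 of the 47 (10.6%), those of Cat, Dao, Pex11g, Phyh and Scp2, against 16.3% of all promoters, and CCAAT was in 19 (40.4%), against 37.4%. A match is a description of the letters, and no match says only that they are not in these 300 bases.

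No gene passed an adjusted p of 0.05 in limma with Benjamini-Hochberg adjustment over all 22180 genes (0.0%, smallest adjusted p 0.0613), while 2334 genes had an unadjusted p under 0.05. The 45 peroxisomal genes therefore held 0 calls, and what follows describes the sizes and signs of their differences. In bulk liver, fewer hepatocytes and less RNA per hepatocyte cannot be told apart. Of the 45 differences 32 (71.1%) were negative, that is, lower in the knockout, against 49.8% of all genes. Their median was -0.19 (1.14-fold lower), where the median over all genes was 0.0011. At an unadjusted p under 0.05, 12 (26.7%) were lower, where the share of all genes was 5.46%, and 1 was higher, where the share of all genes was 5.06%. The count of 12 was 6 without control replicate 2 and 8 without control replicate 1, control replicate 3 or knockout replicate 3. A difference of at least 1.5-fold was seen in 4 members (8.89%), against 2.92% of all genes. In 19 members (42.2%) every knockout value lay under every control value, against 9.14% of all genes, and in 1, Pex26, every knockout value lay above, against 7.61%. Negative differences were also more frequent in the bright part of the table, to which 43 of the 45 members belong. Among the 11294 genes whose mean exceeded the median of all single-symbol probe sets (3.51), the median difference was -0.051 and 59.1% were negative. Of these, 8.69% were lower at an unadjusted p under 0.05, 14.5% were lower without overlap and 3.85% differed at least 1.5-fold.

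Members lower at that limit were spread unevenly over the 3 classes. Among the 15 enzymes of fatty acid oxidation the median difference was -0.34 (1.27-fold lower), 12 were negative and 8 (53.3%) were lower at an unadjusted p under 0.05. Among the 13 peroxins the median was -0.19, 9 were negative and 1 (7.69%), Pex11a, was lower at that limit. Among the 17 other proteins the median was -0.077, 11 were negative and 3 (17.6%) were lower, namely Hao1, Nudt7 and Pxmp4. Over all genes 5.46% were lower at that limit, and 8.69% of the genes above 3.51, so the peroxin share at that limit was close to these shares. By lack of overlap it was not: 5 of the 13 peroxins (38.5%) were lower without overlap. The share was 60.0% in the oxidation enzymes and 29.4% in the other proteins. It was 9.14% over all genes and 14.5% of the genes above 3.51. The oxidation enzymes were also the brightest class, with a median level of 9.28, against 6.005 in the peroxins and 6.82 in the other proteins. The difference between these classes was not tested. The count of 8 in fatty acid oxidation depended on single arrays: it was 4 without knockout replicate 3 (6.19% of all genes then), 3 without control replicate 2 (3.42%) and between 6 and 8 without any other array. The count of 1 in the peroxins was 3 without knockout replicate 2, and their median was -0.12 without knockout replicate 3. The count of 3 in the other proteins was 1 without knockout replicate 1, control replicate 1 or control replicate 3, and 2 without knockout replicate 2 or control replicate 2. Their median was -0.15 without control replicate 1 and between -0.12 and -0.065 without any other array.

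**Figure D1:**
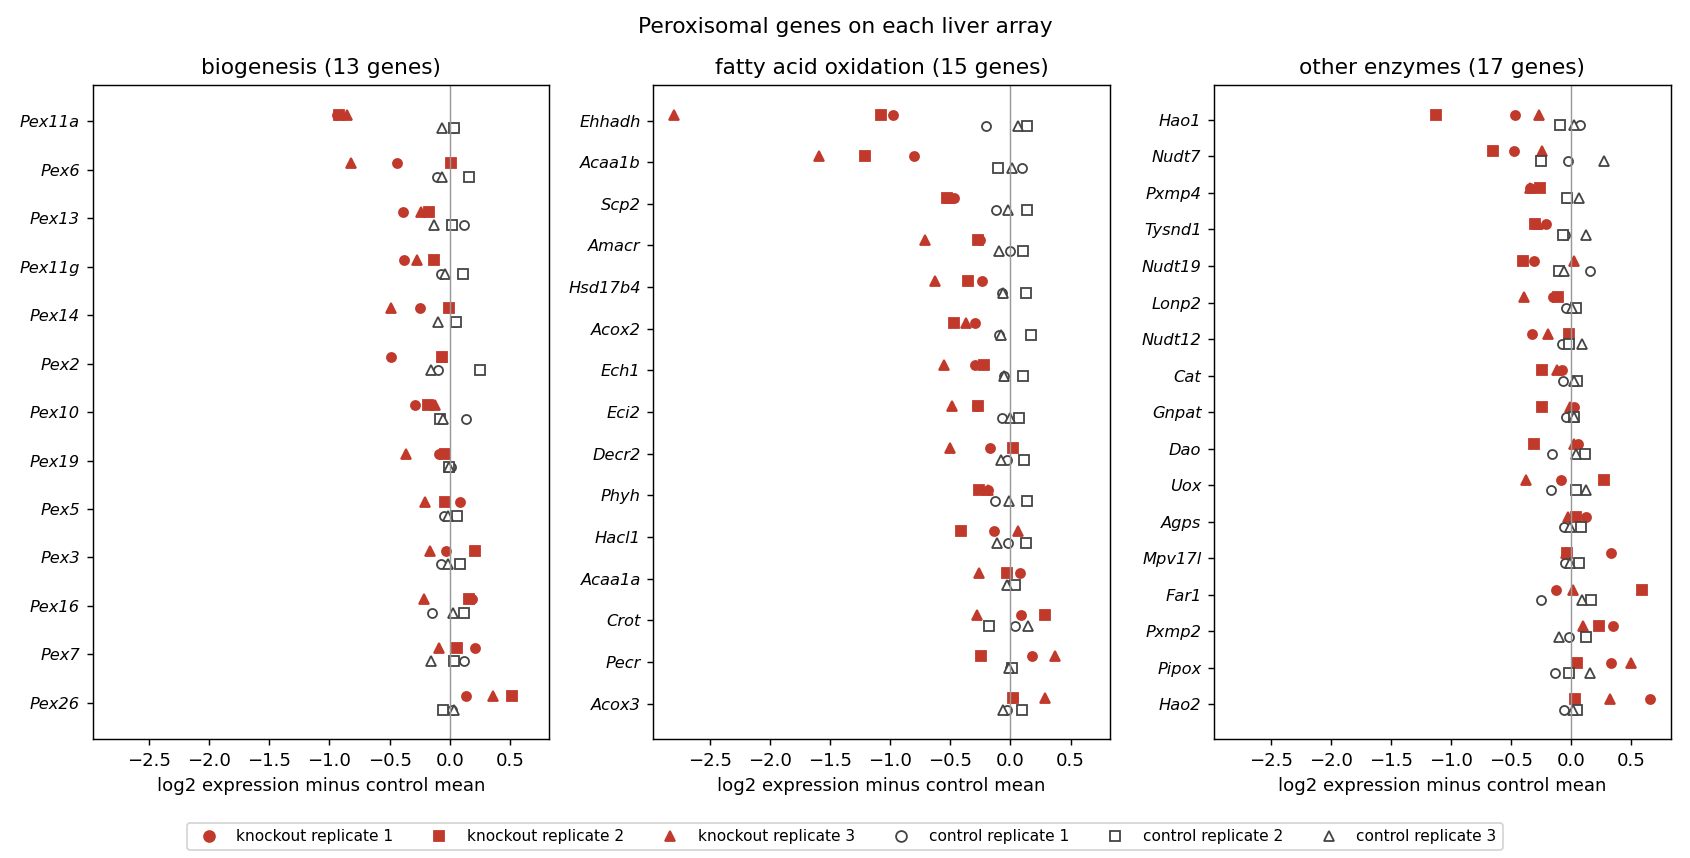
Log2 expression of each of the 45 genes on each array minus the mean of the 3 control arrays (x axis), with a row for each gene in 3 panels by class. Filled red symbols are knockout arrays and open symbols are control arrays, with the shape giving the replicate. The knockout symbols of Pex11a, Ehhadh, Acaa1b and Scp2 lie clear of the controls, and the triangle of knockout replicate 3 is farthest left in all 8 genes of straight-chain beta-oxidation.

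Pex11a, which elongates the peroxisomal membrane before division, had the smallest p-value of all members. It measured 6.22, 6.23 and 6.30 in knockout replicates 1 to 3, against 7.19, 7.19 and 7.09 in control replicates 1 to 3. The groups were far apart and the arrays of each group close together, with means of 6.25 ± 0.044 in the knockout and 7.16 ± 0.057 in the controls (SD, n = 3 each). The difference was -0.90 (SE 0.12, 95% confidence interval -1.18 to -0.63), a 1.87-fold lower level, with a limma adjusted p of 0.0826 over all genes. It passed 0.05 in 3 of 14 alternatives, with adjusted p = 0.0383 without knockout replicate 3, 0.0265 after a filter on dim probe sets and 0.0251 when the variance prior followed intensity (range over the 14 alternatives 0.0251 to 0.456). Its size hardly depended on the alternative, ranging from -0.94 to -0.83. The second gene of this family measured, Pex11g, differed by -0.26 (SE 0.13, adjusted p = 0.527). It measured 5.43, 5.68 and 5.54 in the knockout, against 5.74, 5.92 and 5.77 in the controls, also without overlap but with a gap (0.061) smaller than the range within the knockout (0.249).

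The receptors that import matrix proteins, with their docking and ligase partners, had differences between -0.27 and 0.060, none at an unadjusted p under 0.05. Pex5 and Pex7 are the receptors for the targeting signals at the carboxyl and amino end of the cargo. Pex5 differed by -0.052 (SE 0.13, 95% confidence interval -0.35 to 0.25) and Pex7 by 0.060 (SE 0.14, interval -0.26 to 0.38), with the groups overlapping in both. The docking proteins Pex13 and Pex14 differed by -0.27 (SE 0.13) and -0.24 (SE 0.15). Pex2 and Pex10, subunits of the ubiquitin ligase that recycles the receptor, differed by -0.21 (SE 0.17) and -0.19 (SE 0.13). Of these 6 genes, Pex10 and Pex13 were lower without overlap between the groups, and their adjusted p-values were 0.630 and 0.525. Their gaps (0.039 and 0.038) were smaller than the ranges within the knockout (0.168 and 0.216) and within the controls (0.214 and 0.251). Over all genes 9.14% were lower without overlap, and 14.5% of the genes above 3.51. Pex2 was -0.065 without knockout replicate 1 and -0.081 without control replicate 2.

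The receptor is pulled back out of the membrane by a pair of ATPases, of which Pex6 was measured, anchored by Pex26. These partners had differences of opposite sign. Pex6 measured 5.78, 6.23 and 5.39 in knockout replicates 1 to 3, against 6.11, 6.38 and 6.15 in the controls, a difference of -0.42 (SE 0.21, adjusted p = 0.515). Knockout replicate 2 lay within the control range, and without it the difference was -0.63, while without knockout replicate 3 it was -0.21. Pex26 lay at 5.67, 6.05 and 5.89 in the knockout arrays, against 5.55, 5.48 and 5.56 in the controls. It was the single member higher at an unadjusted p under 0.05, by 0.34 (SE 0.14, interval 0.024 to 0.65, adjusted p = 0.436), which is 1.26-fold, and with the replicate number as a block, or without any 1 of the control arrays or knockout replicate 3, the count of such members was 0.

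Pex3, Pex16 and Pex19 insert proteins into the peroxisomal membrane and are needed to form the organelle anew. Pex3 differed by 0.0066 (SE 0.14, interval -0.31 to 0.33) and Pex16 by 0.044 (SE 0.15, interval -0.30 to 0.39), and Pex19 by -0.16 (SE 0.13, adjusted p = 0.707). Pex19 measured 7.36, 7.41 and 7.09 in the knockout arrays, against 7.45, 7.45 and 7.44 in the controls. The groups did not overlap, but the gap was only 0.033, with controls that were nearly identical to each other, and without knockout replicate 3 the difference was -0.064.

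Straight-chain beta-oxidation in the peroxisome runs from an oxidase through a bifunctional hydratase and dehydrogenase to a thiolase. Of the 8 members measured 7 (87.5%) were negative, against 49.8% of all genes and 59.1% of the genes above 3.51. At an unadjusted p under 0.05, 5 (62.5%) were lower, against 5.46% of all genes and 8.69% of those above 3.51. Ehhadh, the L-bifunctional enzyme, had the largest difference of all 45 genes. It measured 9.85, 9.76 and 8.03 in knockout replicates 1 to 3, against 10.63, 10.97 and 10.89 in the controls. All knockout arrays were under the controls, and replicate 3 was far under replicates 1 and 2. The means were 9.21 ± 1.02 in the knockout and 10.83 ± 0.18 in the controls (SD, n = 3 each), a difference of -1.62 (SE 0.41, interval -2.55 to -0.69), or 3.07-fold, with a limma adjusted p of 0.271. Without knockout replicate 3 the difference was smaller, -1.03, while the adjusted p was 0.0475 (range over the 14 alternatives 0.0475 to 0.691).

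The other bifunctional enzyme, Hsd17b4, which acts on the D-stereoisomers and on branched chains, differed less. It lay at 9.63, 9.51 and 9.24 in the knockout arrays, against 9.80, 10.00 and 9.81 in the controls, without overlap. The difference was -0.41 (SE 0.15, adjusted p = 0.391), a 1.33-fold lower level.

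The thiolases that cut off acetyl-CoA are encoded in mouse by a pair of paralogues, and their values differed. Acaa1b measured 9.06, 8.65 and 8.27 in knockout replicates 1 to 3, against 9.95, 9.75 and 9.87 in the controls. The lowest control was 0.69 above the highest knockout array. The difference was -1.20 (SE 0.20, interval -1.64 to -0.76), 2.30-fold lower, with a limma adjusted p of 0.133. It passed 0.05 in 1 of 14 alternatives, the variance prior that follows intensity (adjusted p = 0.0443, range 0.0443 to 0.485). Acaa1a lay at 7.05, 6.95 and 6.71 in the knockout arrays, against 6.97, 7.02 and 6.95 in the controls, with overlap, and its difference was -0.073 (SE 0.14, interval -0.38 to 0.23, adjusted p = 0.882). The intervals of the paralogues did not overlap, although the difference between them was not itself tested. Transcripts of such close paralogues can bind each other's probes, so the separation of the 2 probe sets may be incomplete.

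Auxiliary enzymes deal with double bonds. Eci2, an enoyl-CoA isomerase, lay at 7.47, 7.48 and 7.26 in the knockout arrays, against 7.68, 7.82 and 7.75 in the controls (difference -0.34, SE 0.13, adjusted p = 0.407). Ech1, a dienoyl-CoA isomerase, lay at 9.74, 9.82 and 9.49 in the knockout arrays, against 9.98, 10.14 and 9.99 in the controls (-0.35, SE 0.14, adjusted p = 0.426). Both were without overlap and about 1.27- to 1.28-fold lower. Decr2, the peroxisomal dienoyl-CoA reductase, overlapped, at 10.14, 10.34 and 9.81 in the knockout arrays against 10.28, 10.42 and 10.24 in the controls (-0.22, SE 0.16), and its difference was -0.075 without knockout replicate 3. Crot, which exports the shortened chains as carnitine esters, differed by 0.033 (SE 0.17, interval -0.36 to 0.42).

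Knockout replicate 3 was the lowest knockout array in all 8 genes of straight-chain beta-oxidation, where it was the lowest in 33.2% of all genes. The median of these 8 genes relative to the control mean was -0.26 in knockout replicate 1, -0.24 in replicate 2 and -0.53 in replicate 3. In the enzymes of branched-chain, bile acid and alpha-oxidation replicate 2 was the lowest in 6 of 7 and replicate 3 in 1 (Amacr). Among these, replicates 1 and 2 were nearly equal in Acox3 (5.249 and 5.248). By the median relative to the control mean, replicate 3 was again lowest in branched-chain and bile acid side-chain oxidation. The medians there were -0.273, -0.368 and -0.441 in replicates 1 to 3, and in alpha-oxidation -0.135, -0.26 and 0.066.

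Branched chains and bile acid precursors enter through other enzymes, and 3 of the 4 measured were lower at an unadjusted p under 0.05. Over all genes 5.46% were lower at that limit, and 8.69% of the genes above 3.51. Scp2, whose gene encodes both sterol carrier protein and the thiolase of branched chains, measured 11.24, 11.19 and 11.20 in knockout replicates 1 to 3, against 11.60, 11.85 and 11.70 in the controls. The knockout arrays were nearly identical and all under the controls. The difference was -0.50 (SE 0.13, interval -0.79 to -0.22, adjusted p = 0.267), 1.42-fold lower, and it ranged from -0.61 to -0.43 over the 14 alternatives. Acox2, the oxidase of bile acid intermediates, lay at 8.09, 7.92 and 8.02 in the knockout arrays, against 8.29, 8.56 and 8.31 in the controls (-0.38, SE 0.14, adjusted p = 0.390). Amacr, the racemase that prepares branched acyl-CoA for these oxidases, lay at 8.62, 8.61 and 8.16 in the knockout arrays, against 8.87, 8.98 and 8.78 in the controls (-0.41, SE 0.16, adjusted p = 0.415). Both lacked overlap, but without knockout replicate 3 the difference of Amacr was -0.26. Acox3, an oxidase of branched chains such as pristanic acid, differed by 0.11 (SE 0.13, adjusted p = 0.809), with the groups overlapping, and by 0.020 without knockout replicate 3.

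In alpha-oxidation, which removes a single carbon from phytanic acid, Phyh is the hydroxylase and Hacl1 the lyase. Phyh lay at 10.15, 10.07 and 10.14 in the knockout arrays, against 10.21, 10.47 and 10.32 in the controls (difference -0.21, SE 0.13, adjusted p = 0.592). Its second, dimmer probe set pointed the other way, with means of 7.90 in the knockout and 7.43 in the controls (0.47), so the direction of Phyh is uncertain. Hacl1 differed by -0.16 (SE 0.16) and Pecr, an enoyl-CoA reductase of the phytol pathway, by 0.10 (SE 0.17), both with overlap, and Hacl1 was -0.035 without knockout replicate 2.

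**Figure D2:**
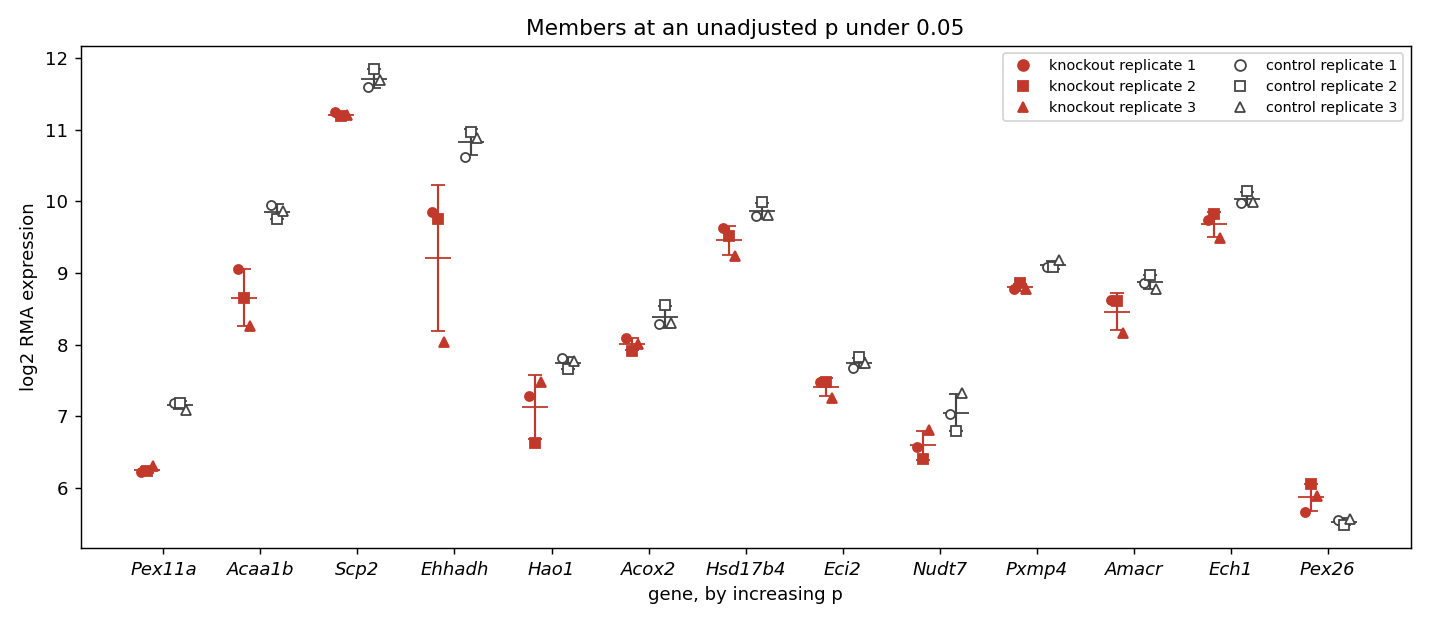
Log2 RMA expression (y axis) of the 13 members at an unadjusted p under 0.05, ordered by p (x axis), on each knockout array (filled red) and each control array (open), with the group mean as a long bar and the standard deviation as whiskers (n = 3 each). The knockout arrays of Pex11a and Scp2 lie close together, those of Ehhadh spread over 1.82 log2 units, and only Pex26 is higher in the knockout.

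Among the oxidases that produce hydrogen peroxide, Hao1, the glycolate oxidase of hepatocytes, was the 1 member lower at an unadjusted p under 0.05. It measured 7.28, 6.63 and 7.48 in knockout replicates 1 to 3, against 7.82, 7.66 and 7.77 in the controls, without overlap. The difference was -0.62 (SE 0.21, interval -1.09 to -0.15, adjusted p = 0.366), 1.54-fold lower, and without knockout replicate 2 it was -0.37. Catalase (Cat), which breaks the peroxide down, lay at 12.67, 12.52 and 12.63 in the knockout arrays, against 12.69, 12.80 and 12.77 in the controls. The gap between the groups was 0.013, and the difference of -0.15 (SE 0.12, interval -0.43 to 0.13) had an adjusted p of 0.712. Pipox, which oxidises pipecolate and sarcosine, lay at 9.86, 9.58 and 10.03 in the knockout arrays, against 9.40, 9.52 and 9.69 in the controls, overlapping, with a positive difference (0.29, SE 0.16, adjusted p = 0.544). Urate oxidase (Uox) differed by -0.060 (SE 0.18), with overlap. Dao and Hao2, oxidases of D-amino acids and of long-chain hydroxy acids, were the 2 members in the dim part of the array, with means of 3.34 and 1.92 over the 6 arrays, so that their differences of -0.074 and 0.33 cannot be read as folds.

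The nudix hydrolases degrade nucleotide cofactors inside the organelle, and all 3 were negative, against 49.8% of all genes and 59.1% of those above 3.51. Nudt7, which splits coenzyme A and its esters, lay at 6.58, 6.40 and 6.81 in the knockout arrays, against 7.03, 6.80 and 7.33 in the controls. Knockout replicate 3 and control replicate 2 met at 6.81 and 6.80, so the groups overlapped slightly, with a difference of -0.46 (SE 0.17, adjusted p = 0.407), 1.37-fold lower. Nudt19, another coenzyme A hydrolase, differed by -0.23 (SE 0.15) and Nudt12, which acts on NADH, by -0.18 (SE 0.14), both with overlap.

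The remaining proteins covered proteolysis, membrane permeability and ether lipids. Pxmp4, a peroxisomal membrane protein, lay at 8.77, 8.86 and 8.77 in the knockout arrays, against 9.08, 9.08 and 9.19 in the controls (difference -0.32, SE 0.12, adjusted p = 0.413), with a gap larger than the spread within either group. The channel protein Pxmp2 had a positive difference (0.22, SE 0.13) and so did its relative Mpv17l (0.083, SE 0.14), both overlapping. The matrix proteases Lonp2 and Tysnd1, the second of which processes beta-oxidation enzymes, differed by -0.22 (SE 0.13) and -0.26 (SE 0.13) without overlap, at adjusted p-values of 0.594 and 0.500. The ether lipid genes Gnpat, Agps and Far1, which make plasmalogen precursors, differed by -0.077, 0.043 and 0.16, with 0 of 3 at an unadjusted p under 0.05.

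**Figure D3:**
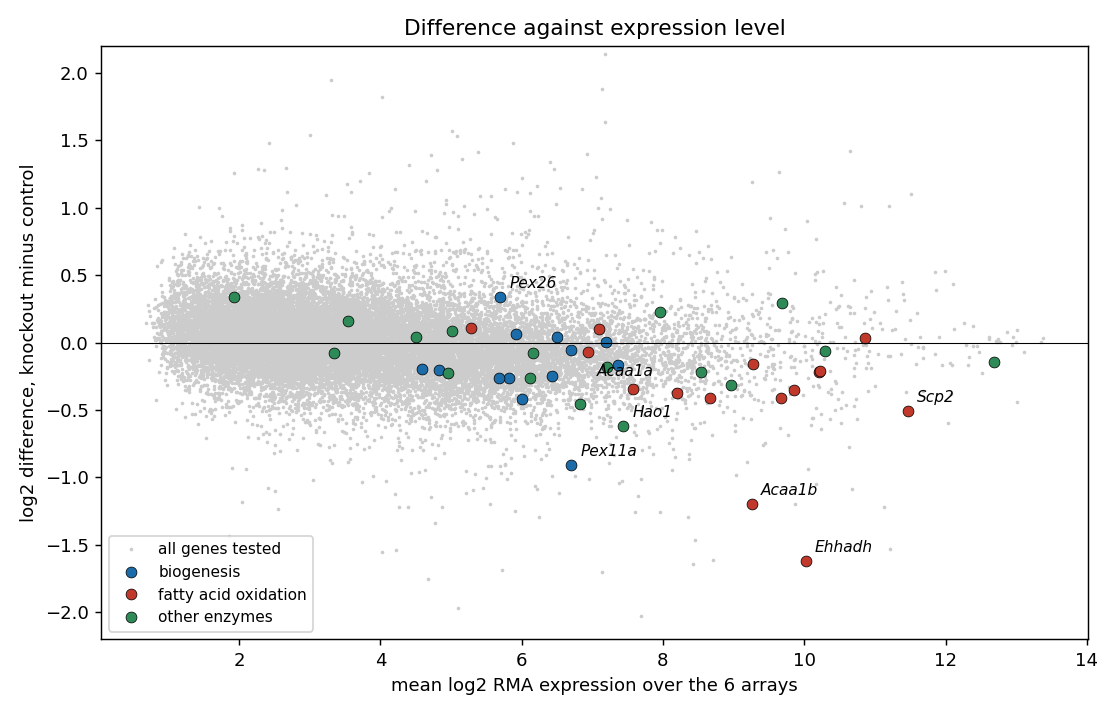
Log2 difference, knockout minus control (y axis), against the mean log2 expression over the 6 arrays (x axis) for all genes tested (grey) and for the peroxins (blue), the enzymes of fatty acid oxidation (red) and the other peroxisomal proteins (green). Ehhadh, Acaa1b and Pex11a lie below most genes of their level, at -1.62, -1.20 and -0.90. Beyond the plotted range lie 13 genes, none a member.

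Further peroxisomal genes outside the 45 were read beside them. Of 43 such genes listed, 33 were measured with a single symbol, 24 had negative differences with a median of -0.15, 6 (18.2%) were lower at an unadjusted p under 0.05 and 1 was higher. Over all genes 5.46% were lower and 5.06% higher at that limit, and 8.69% of the genes above 3.51 were lower. The 6 lower peroxisomal genes were Acot4 (-0.71), the epoxide hydrolase gene Ephx2 (-0.50), Acad11 (-0.40), the fatty acyl-CoA transporter gene Abcd3 (-0.39), Dhrs4 (-0.36) and Dnm1l, which encodes the GTPase that divides peroxisomes and mitochondria (-0.32). The higher one was Abcd2, a transporter of very long-chain acyl-CoA, at 7.34, 7.06 and 6.92 in knockout replicates 1 to 3, against 6.68, 5.40 and 5.37 in control replicates 1 to 3. Control replicate 1 lay well above the other controls, and the difference was 1.29 (SE 0.32, adjusted p = 0.261), 2.44-fold, opposite in sign to that of its relative Abcd3.

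Ppara itself lay at 7.17, 7.01 and 7.07 in the knockout arrays, against 7.47, 7.31 and 7.27 in the controls (-0.26, SE 0.13, adjusted p = 0.507), without overlap, and the partner receptor gene Rxrb differed by -0.23 (SE 0.14). The related receptor genes Pparg and Ppard differed by 0.36 (SE 0.24) and -0.19 (SE 0.14). Rxra, given after its values were seen because it encodes the main partner, differed by -0.071 (SE 0.12). Of the 7 receptor and cofactor genes measured, 4 were negative and 3 positive, and 0 were at an unadjusted p under 0.05. Mitochondrial beta-oxidation genes gave values close to those of the peroxisomal oxidation enzymes: 16 of 17 were negative with a median of -0.34. At an unadjusted p under 0.05, 8 (47.1%) were lower, against 5.46% of all genes and 8.69% of those above 3.51. These 8 were led by Cpt2 (-0.63), Hadhb (-0.62), Hadha (-0.64) and Eci1 (-0.65). Knockout replicate 3 was the lowest knockout array in 15 of the 17 mitochondrial genes. The larger differences of Ehhadh and Acaa1b were outside the range of the mitochondrial genes (-0.65 to 0.086), and this was not tested.

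Markers of other cell types differed too. Over all genes, 5.06% were higher and 5.46% lower at an unadjusted p under 0.05. Of 16 macrophage and Kupffer cell markers 16 had positive differences, 13 of them at an unadjusted p under 0.05, with a median of 0.81. Their summed level on the linear scale was 975 to 2215 in the knockout arrays and 735 to 789 in the controls, with knockout replicate 2 highest and replicate 3 lowest among the knockout arrays. Markers of hepatocytes had a median of 0.037, with 5 of 13 negative. Their summed level was 53382 to 55529 in the knockout arrays and 52840 to 53112 in the controls. This linear sum weighs bright genes most. Among them Fgb lay at 12.12, 12.57 and 12.26 in the knockout arrays, against 11.93, 11.84 and 11.88 in the controls, which raises the knockout sums. Of the 13, 2 were at an unadjusted p under 0.05, Hnf4a (-0.36) and Fgb (0.43). Endothelial markers had 8 of 9 positive differences, 2 at that limit. Knockout replicate 1 had an endothelial sum of 778, replicate 2 of 1266 and replicate 3 of 787, where control sums ran from 722 to 739. Stellate cell markers had 9 of 10 positive differences, with 2 higher and 1 lower at that limit. Their sum was 653 for knockout replicate 1, 1271 for replicate 2 and 704 for replicate 3. Control sums of stellate cell markers ran from 596 to 753, a range that held knockout replicates 1 and 3. The high end of both knockout ranges therefore came from knockout replicate 2 alone. Neutrophil and lymphocyte markers were mostly dim, 11 of 12 and 6 of 9 lying under 3.51, and 3 and 1 of them were higher at an unadjusted p under 0.05. The 6 cholangiocyte markers, 4 of them dim, had 4 positive differences, 1 at that limit, with sums of 68.4 to 84.0 in the knockout arrays against 67.6 to 71.2 in the controls. Of the 4 adipose markers, 2 of them dim, 3 were negative, and Cidec, which encodes a lipid droplet protein, was lower at that limit (-1.22, SE 0.47, groups overlapping). The adipose markers summed to 31.7 to 53.5 in the knockout arrays against 46.3 to 101.5 in the controls. Cidec, the brightest of them, weighs most in this sum, while Adipoq, Plin1 and Lep differed by -0.083, -0.017 and 0.47. The part of these cells in the peroxisomal differences was not tested.

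**Figure D4:**
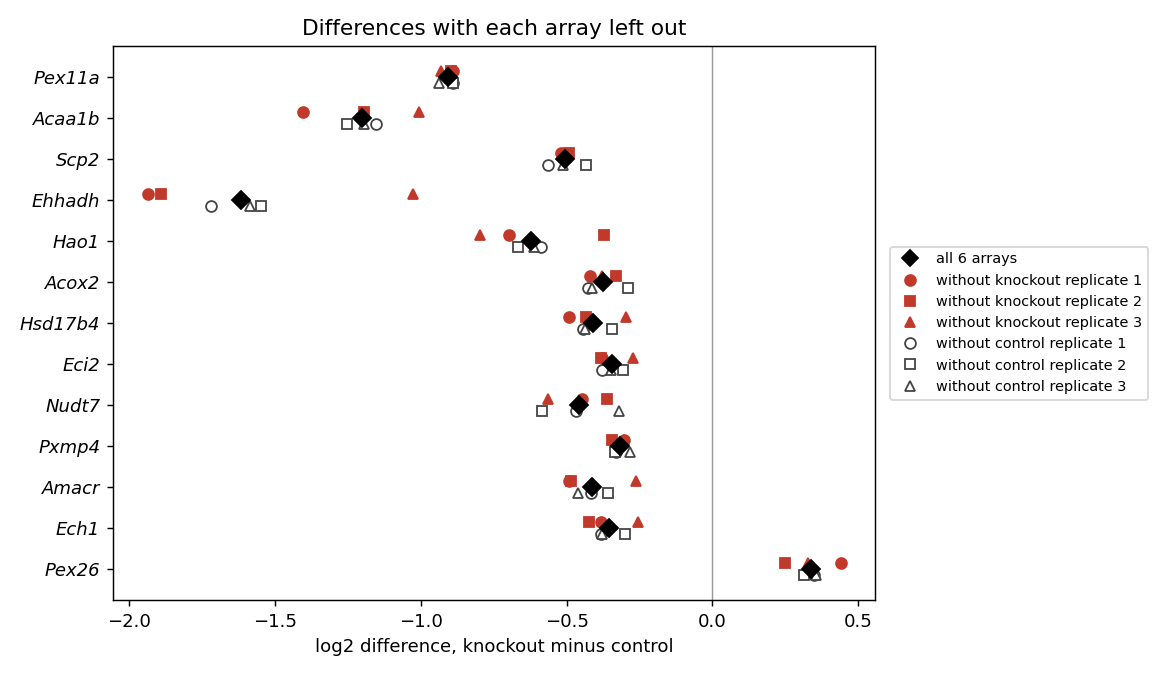
Log2 difference, knockout minus control (x axis), of the 13 members at an unadjusted p under 0.05 with all 6 arrays (black diamonds) and with each array left out (red, a knockout array left out; open, a control array left out). All 13 kept their sign. Where the groups did not overlap, as in all but Nudt7, this was fixed in advance. Ehhadh was -1.03 without knockout replicate 3 and Hao1 was -0.37 without knockout replicate 2, while Pex11a ran from -0.94 to -0.89.

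Across genes, which are not independent replicates, arrays correlated at 0.978 to 0.983 within the knockout, 0.989 to 0.990 within the controls and 0.978 to 0.983 between the groups. Replicates spread more in the knockout, with a median SD per gene of 0.193, against 0.146 in the controls. Prkg1 did not separate the groups, at 3.31, 3.04 and 3.22 in the knockout, against 3.32, 2.97 and 2.95 in the controls (0.11, SE 0.15, adjusted p = 0.837). It belongs to the dim part of the table, and the deleted part of the gene is not stated, so this probe set does not check the genotype labels.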

How the data were processed

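Total liver RNA was measured on 1 Affymetrix whole-transcript array per sample. The deposited table holds log2 expression values that the authors made with Affymetrix Expression Console 1.4.1 and RMA, per the submitters' processing notes, for 41345 probe sets. Because RMA makes the distributions of the arrays nearly alike, a shift of most transcripts in 1 direction would not show. Array medians were 3.11 to 3.16, and the small number of arrays limits precision.

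Probe sets were named from the platform annotation: 23521 had 1 symbol, 1814 several and 16010 were unnamed. The brightest probe set stood for each of the 1082 genes with several. Differences (knockout minus control) were fitted in limma 3.58.1 (lmFit, eBayes; R 4.3.3) with 2-sided p-values adjusted over 22180 genes, a fit tested on simulated data. No set test was made. Members and lists were chosen with earlier results of these data known. Every member is described, those at an unadjusted p under 0.05 or a 1.5-fold difference with all array values, and from the other lists up to 4 genes by smallest p. Alternatives left out each array, blocked on replicate number, re-normalized, filtered dim probe sets, averaged probe sets or changed the variance model or array weights. Same-numbered arrays did not deviate together (correlations 0.0064, 0.053 and 0.015), so the numbers were not used as pairs.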

Additional observations from a re-analysis of the deposited data

How the results depend on the processing

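Over 14 alternatives the 13 genes at an unadjusted p under 0.05 kept their sign, and 13 of the other members changed sign under at least 1. The 13 genes were picked by p on these same arrays. In all of them but Nudt7 the groups did not overlap, so leaving out an array could not change the sign. Their kept signs are therefore no separate support. All genes passing an adjusted p of 0.05 numbered 16 with the filter on dim probe sets, 25 with the intensity trend, 1 with the replicate block and 0 to 66 (66 without knockout replicate 3) when each array was left out. Of members, 1 passed with the dim filter, 2 with the trend and 0 to 2 with an array left out, a count added after the data were seen. Members lower at an unadjusted p under 0.05 numbered 6 (without control replicate 2) to 12 with an array left out, and higher ones 0 to 2, and 0 with the replicate block. Numbers shared between groups did not mark pairs, and the block left 12 members lower. The median of the other peroxisomal proteins was -0.15 with the dim filter and -0.15 to -0.065 with an array left out, while those of all members, the peroxins and the oxidation enzymes stayed within the spread between knockout arrays.

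With an array left out, 26 of the 32 members at an unadjusted p of at least 0.05 shrank by over 1.5 times or changed sign, against 3 of the 13 under it (Ehhadh, Amacr and Hao1), counts added after the data were seen. The split by p came from these same arrays and favours small differences in the first group. This contrast is therefore no separate support for the 13. Signs reversed for Phyh with the mean of its probe sets (0.13) and, with quantile normalization, for Pex5 (0.0058) and Gnpat (0.0003). With an array left out, values ran from -0.12 to 0.024 for Pex5, -0.12 to 0.0062 for Gnpat, -0.019 to 0.13 for Pex7, -0.097 to 0.092 for Pex3, -0.030 to 0.17 for Pex16, -0.15 to 0.023 for Acaa1a, -0.094 to 0.19 for Crot, -0.031 to 0.28 for Pecr, -0.055 to 0.30 for Far1, -0.15 to 0.043 for Dao, -0.23 to 0.097 for Uox and -0.038 to 0.15 for Mpv17l. The causes were not tested.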
